A study of Mus musculus with 12 samples.

Results

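This comparison follows the mouse embryonic lung between 6 h and 9 h of FGFR2b ligand blockade, and asks which genes moved during those 3 h. It used 6 of the 12 arrays of the series, 3 from lungs with soluble FGFR2b after 9 h of doxycycline (LOF 9 h, for loss of function) and 3 after 6 h (LOF 6 h), and all 20738 genes that could be named on the array. No gene was left out of the test by its value, but the gene lists below were chosen with earlier results of these data known. Both groups carried the same alleles, Rosa26rtTA and tet(O)solubleR2b, on strain C57bl/6J. The transactivator rtTA stood at the broadly active Rosa26 locus, so every cell could make the secreted receptor, the ligand-binding part of the receptor joined to a mouse antibody chain that binds all ligands of FGFR2b and not FGF10 alone. Doxycycline was injected into the pregnant female at embryonic day 12.5, and each array held RNA of 1 whole lung. Whether the lungs of a group came from 1 litter is not given. The p-values measure only the spread between lungs within groups, pooled over all 12 arrays.

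The other 6 arrays entered the fit only through the spread and are quoted for orientation. The labels give the control lungs as wild-type without treatment, whereas the study describes them as littermates with the transactivator from treated mothers, 2 taken at 6 h and 1 at 9 h. Lungs with an inducible Fgf10 (GOF 9 h, for gain of function) had 9 h of doxycycline. No group was left without induction for the same extra 3 h, so a longer block and 3 h more of development or of the day cannot be told apart in any value below.

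In the lung bud, mesenchymal cells around the tips secrete FGF10, which binds FGFR2b on the tip epithelium and maintains those cells as tip progenitors. The receptor acts through ERK on ETS factors such as Etv4 and Etv5, and is restrained by feedback inhibitors of the Sprouty, Spred and Dusp families. The epithelium answers with SHH, which signals back through the receptor Ptch1 and the transcription factor Gli1 to the mesenchyme, where it sustains the forkhead factors Foxf1 and Foxl1 and limits Fgf10. WNT and BMP ligands from both layers feed into the same loop. A soluble receptor removes the ligand outside the cell and thereby interrupts the first step.

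All arrays had the same signal distribution, with a median of 2.98 and upper and lower quartiles of 6.01 and 2.20 on the log2 scale. The labelled tissue was borne out by its markers, since Nkx2-1, the transcription factor of lung endoderm, stood between 8.45 and 9.36 in the 6 arrays compared and the lung mesenchyme factor Tbx4 at a mean of 10.73 over all arrays. The level of general epithelial genes (Cdh1, Epcam, Krt8, Krt18, Krt19, Cldn6) was 9.52 to 9.69 at 6 h and 9.58 to 9.70 at 9 h, as a list mean per array. The lungs differed in sex-linked signal. Xist, the RNA that coats the inactive X chromosome of females, stood at 5.51 to 6.35 in the 9 h arrays and 1.94 to 2.36 in the 6 h arrays, and the Y-linked Eif2s3y at 2.08 to 2.89 against 3.31, 7.74 and 7.59. One 6 h array was thus low for both. Sex-linked signal therefore ran largely with time, and sex and time cannot be fully told apart in the values below. A fit with Y-linked signal as a covariate is given below. A fit on arrays low in Eif2s3y kept 1 lung at 6 h, so it compares that lung alone with the 9 h lungs.

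Between 6 h and 9 h, 13 genes changed, which is 0.0627% of the 20738 tested. 10 genes rose (0.0482%) and 3 fell (0.0145%), by limma with Benjamini-Hochberg adjustment over all genes, two-sided, with n = 3 arrays in each group and a threshold of 0.05. In all 13 the 6 h and the 9 h arrays did not overlap and the change was at least 2-fold. The genes that rose included a pair of small nucleolar RNA host genes, Snhg16 and Zfas1, the imprinted long noncoding RNA Meg3, the signalling genes Lime1, Rgs11 and Plekhg4, and Pnliprp1, a relative of pancreatic lipase. At an unadjusted p under 0.05, 1013 genes were higher at 9 h (4.88%) and 1093 lower (5.27%). With each array centred on its median over the 20738 genes, rather than over all features, a scaling that moved the median of all genes from -0.03 to 0.03, 1372 of 2116 such genes were higher. Groups that did not overlap were found in 7.95% of genes with the 9 h arrays higher and in 9.66% with them lower. The median change over all genes was -0.03, with 9567 genes higher at 9 h (46.1%) and 11171 lower. Counts of list members below are to be read beside these shares.

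The smallest p belonged to Snhg16 (gene 66293). This gene yields a spliced noncoding RNA, and its introns hold small nucleolar RNAs, which guide chemical modification of ribosomal RNA. Its log2 signal was 7.19, 7.24 and 7.02 in the 6 h arrays and 9.09, 9.10 and 9.37 in the 9 h arrays. The controls read 9.45, 9.59 and 9.66, and the GOF arrays 9.61 to 9.73, so the 6 h lungs alone were low. Snhg16 rose by 2.03 ± 0.13 (log2 difference ± standard error, here and below), a 4.10-fold change with an adjusted p of 3.25e-04.

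Zfas1 (gene 68949), likewise a host of small nucleolar RNAs, gave 9.75, 9.50 and 9.69 at 6 h and 10.92, 10.69 and 10.88 at 9 h. It rose by 1.18 ± 0.14 (adjusted p = 0.0253). Control arrays stood at 10.58 to 10.90, close to the 9 h lungs. Meg3 (gene 17263) is expressed from the maternal copy of an imprinted cluster and its RNA stays largely in the nucleus. It read 9.01, 8.78 and 8.69 at 6 h and 11.71, 11.07 and 11.44 at 9 h, and rose by 2.58 ± 0.36 (adjusted p = 0.0455). All 3 features of Meg3 on the array had the 9 h lungs above the 6 h lungs without overlap, by 2.58, 1.995 and 1.195.

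The sequence around the start of these 3 noncoding genes is shown because they carried the clearest change among RNAs without a protein product. The windows are RefSeq promoters (build GRCm38.p6) from 250 bases before to 50 bases after a start, read along the gene, and 12 of the 13 genes that changed had such a window. Capitals mark matches, on either strand, to the cyclic AMP response element TGACGTCA or to the TATA box TATAAA. The ETS core CCGGAAG was searched as well. Snhg16 lies at chr11:116671410-116671709, Zfas1 at chr2:167062684-167062983 and Meg3, of which the upstream of 2 windows is given, at chr12:109540746-109541045, all on the plus strand.
Snhg16: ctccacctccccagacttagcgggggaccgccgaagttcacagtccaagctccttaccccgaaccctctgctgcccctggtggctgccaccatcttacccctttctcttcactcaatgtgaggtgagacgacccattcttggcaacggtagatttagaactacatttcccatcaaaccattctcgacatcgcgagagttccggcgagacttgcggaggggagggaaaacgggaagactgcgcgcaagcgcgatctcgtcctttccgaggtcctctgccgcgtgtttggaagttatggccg
Zfas1: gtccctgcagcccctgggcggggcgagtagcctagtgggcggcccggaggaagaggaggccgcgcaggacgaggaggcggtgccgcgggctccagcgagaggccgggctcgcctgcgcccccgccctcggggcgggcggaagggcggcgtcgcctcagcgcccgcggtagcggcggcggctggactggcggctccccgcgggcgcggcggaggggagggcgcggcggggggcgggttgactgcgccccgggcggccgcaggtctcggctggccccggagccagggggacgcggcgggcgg
Meg3: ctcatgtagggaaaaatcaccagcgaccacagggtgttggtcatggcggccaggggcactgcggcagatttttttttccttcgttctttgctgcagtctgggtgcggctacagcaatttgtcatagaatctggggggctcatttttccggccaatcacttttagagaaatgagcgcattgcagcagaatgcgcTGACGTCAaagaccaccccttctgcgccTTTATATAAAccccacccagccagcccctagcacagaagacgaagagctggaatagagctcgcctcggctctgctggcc
The Meg3 window held the response element 57 bases before the start and TATA matches that begin 29 and 25 bases before it and overlap each other. The windows of Snhg16 and Zfas1 held none of the 3 motifs. Over all 32851 promoter windows, 1.79% held TGACGTCA, 13.6% TATAAA and 8.86% CCGGAAG. The window of Zfas1 was 83.0% G and C with 47 CpG dinucleotides, that of Snhg16 57.3% with 22 and that of Meg3 53.7% with 13, beside a median of 52.7% and 7 over all windows. A match in these letters is a description and was not tied to binding of any factor.

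Among the signalling genes, Lime1 (gene 72699) encodes a membrane adaptor for SRC family kinases first described in lymphocytes. It read 6.5, 6.44 and 6.87 at 6 h and 8.23, 8.25 and 8.38 at 9 h, and rose by 1.68 ± 0.18 (adjusted p = 0.0161). Its second feature gave 1.69, without overlap between the groups. Rgs11 (gene 50782), a GTPase-activating protein that shortens signals through heterotrimeric G proteins, stood at 3.62, 3.21 and 3.80 at 6 h and at 6.23, 5.93 and 6.39 at 9 h. It rose by 2.64 ± 0.31 (adjusted p = 0.0253), and the 9 h arrays lay above all other arrays of the series, the controls at 3.98 to 4.61 included. Plekhg4 (gene 102075), which encodes a protein with a pleckstrin homology domain, read 2.93, 2.67 and 1.93 at 6 h and 5.95, 5.22 and 4.97 at 9 h. It rose by 2.87 ± 0.37 (adjusted p = 0.0326), from a mean of 2.51 that lay below the array median.

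Pnliprp1 (gene 18946) belongs to the lipases of the exocrine pancreas. Its signal was 4.37, 3.23 and 3.3 at 6 h and 6.47, 6.70 and 6.04 at 9 h, against 1.66 to 2.72 in the controls. It rose by 2.77 ± 0.36 (adjusted p = 0.0326). Pnliprp1 and Rgs11 were the 2 genes called in which the 9 h arrays exceeded every other array of the series. The remaining genes that rose were Zc3h7a, a CCCH zinc finger gene (1.49 ± 0.19, adjusted p = 0.0326), Mamdc4, which encodes an apical endosomal glycoprotein known from the developing gut (1.79 ± 0.25, adjusted p = 0.0425), and the predicted gene Gm3696 (2.75 ± 0.29, adjusted p = 0.0161), whose 6 h mean of 2.86 lay below the array median. In Snhg16, Lime1, Gm3696, Zfas1, Zc3h7a, Plekhg4, Mamdc4 and Meg3, 8 of the 10 that rose, the 6 h arrays lay below all 9 other arrays in the brightest feature. In the third feature of Meg3 the 6 h arrays, at 5.57, 5.81 and 5.55, overlapped the controls, of which 1 read 5.56.

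**Figure D1:**
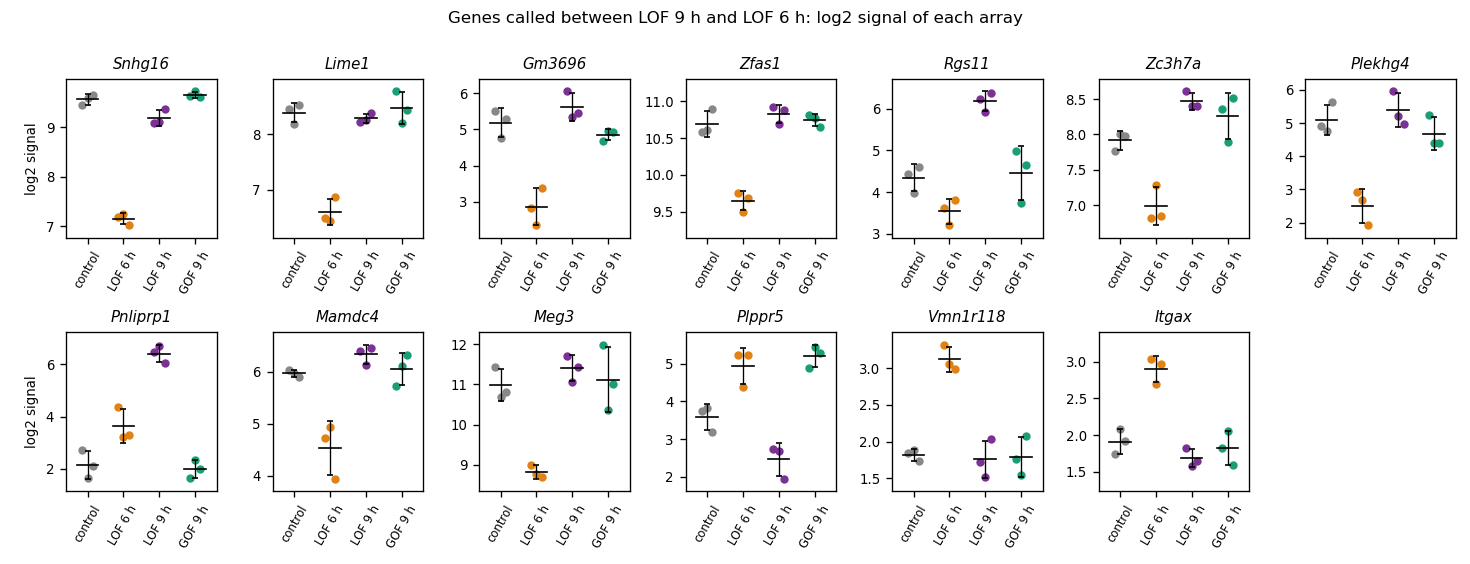
Log2 signal (vertical axis) of the 13 genes called between 9 h and 6 h, one panel per gene, for the 3 arrays of each of the 4 groups, with the group mean and SD as bars. In 8 panels, among them Snhg16 and Meg3, the LOF 6 h points lie below all others, and in Rgs11 and Pnliprp1 the LOF 9 h points lie above all others.

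Of the 3 genes that fell, only Plppr5 had a signal well clear of the array median in 1 of the groups. Plppr5 (gene 75769) encodes a membrane protein related to phospholipid phosphatases and known from neurons. It read 5.22, 4.38 and 5.22 at 6 h and 2.74, 2.68 and 1.95 at 9 h, and fell by 2.48 ± 0.31 (adjusted p = 0.0301). The 9 h arrays were the lowest of the series, with a mean of 2.46 below the array median, and controls stood at 3.18 to 3.83. The vomeronasal receptor gene Vmn1r118 and Itgax, the CD11c integrin chain of dendritic cells and macrophages, changed by -1.36 ± 0.18 and -1.22 ± 0.16 (both adjusted p = 0.0326). Itgax stood at 3.03, 2.70 and 2.97 at 6 h and at 1.82, 1.58 and 1.65 at 9 h, so that its signal lay around or below the array median throughout. Vmn1r118 was as dim. A difference at this level says little about the amount of RNA.

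These calls were sensitive to the arrays used. On the 6 arrays compared alone limma called 0 genes, so that Snhg16 did not pass either, with 2103 at an unadjusted p under 0.05. Without LOF 6 h replicate 1, 2 or 3 the number called was 2, 6 and 4, and without any one of the LOF 9 h arrays it was 1, Snhg16. With Y-linked signal as a covariate Snhg16 alone passed, and with the level of heart genes added instead 3 genes did, Snhg16 and Pnliprp1 among them.

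**Figure D2:**
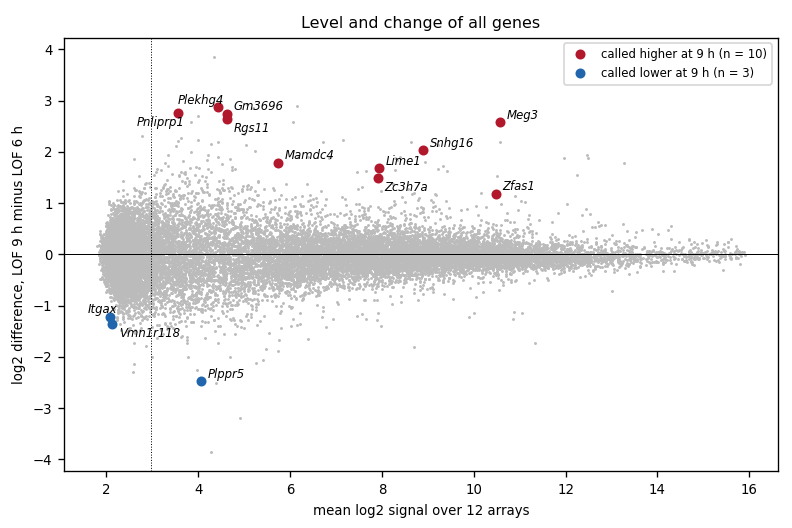
Log2 difference between LOF 9 h and LOF 6 h (vertical axis) against the mean log2 signal over 12 arrays (horizontal axis), 1 point per gene, with the 13 genes called in colour and the array median of 2.98 as a dotted line. Vmn1r118 and Itgax lie left of that line, whereas Meg3, Zfas1 and Snhg16 are among well expressed genes.

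The genes that rose led to a closer look at noncoding and nuclear RNAs, which was chosen after the values had been seen and carries no test. Among the 10369 genes brightest by mean level, 67 were annotated as long noncoding RNA. Of these, 49 (73.1%) stood higher at 9 h, against 44.2% of 10098 protein-coding genes, and their median difference was 0.25 against -0.03. Over all 756 long noncoding RNAs, dim ones included, 54.6% stood higher, with a median of 0.06, and 6.35% were higher and 3.44% lower at an unadjusted p under 0.05. At an unadjusted p under 0.05, 20 of the 67 were higher and 2 lower, that is 29.9% and 2.99%. Besides Snhg16, Zfas1 and Meg3, the smallest p among them belonged to Lockd, a transcript next to the cell cycle inhibitor gene Cdkn1b. It read 8.34, 8.36 and 8.04 at 6 h and 9.35, 9.39 and 9.28 at 9 h (1.10 ± 0.19, adjusted p = 0.0969).

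A list of 19 RNAs known to stay in the nucleus or to retain introns was put together in the same way. Of its 16 measured members, 15 stood higher at 9 h, 14 of them at an unadjusted p under 0.05, and in 15 the groups did not overlap. The exception was the nuclear RNA Tug1 at -0.05 ± 0.18. Only Meg3 passed the adjusted threshold. Over all genes 4.88% were higher at an unadjusted p under 0.05 and 7.95% higher without overlap. The list mean per array was 7.53, 7.52 and 7.62 at 6 h and 8.67, 8.43 and 8.63 at 9 h. Control arrays had 8.36 to 8.72 and GOF arrays 8.25 to 8.98, so the 6 h lungs stood apart. Because the list was chosen with the values known, this adds no independent evidence.

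Within this list the splicing kinase genes Clk1 and Clk4 stood at 1.04 ± 0.25 and 0.89 ± 0.23 (adjusted p = 0.186 and 0.218), and the cyclin L genes Ccnl1 and Ccnl2 at 0.84 ± 0.24 and 0.87 ± 0.21, with 0.44 in the second feature of Ccnl2. Pnisr, a gene of an arginine and serine rich nuclear protein, read 6.58, 6.45 and 6.92 at 6 h and 8.02, 7.76 and 8.11 at 9 h (1.31 ± 0.25, adjusted p = 0.112). Airn, the RNA antisense to Igf2r, read 8.71, 8.06 and 8.26 at 6 h and 10.66, 9.36 and 9.87 at 9 h (1.62 ± 0.46, adjusted p = 0.265), and its second feature gave 0.85. Firre, an X-linked nuclear RNA, had a difference of 1.95 ± 0.29 (adjusted p = 0.0553) in its brightest feature, but its other features gave -0.18 and -0.15. The nuclear RNA level moved with Snhg16, Zfas1 and the other genes low at 6 h, and its part in their change was not tested. RNA quality values of the lungs were not used here.

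The rest of the imprinted genes gave smaller values. Of 12 measured, 10 stood higher at 9 h, with a median of 0.16, and Meg3 alone passed. Mirg, a microRNA host of the same cluster as Meg3, stood at 1.37 ± 0.32 (adjusted p = 0.178), whereas Dlk1, the protein-coding gene of the paternal copy there, stood at 0.12 ± 0.16. H19, a maternally expressed noncoding RNA, gave 15.23, 15.12 and 15.14 at 6 h and 15.40, 15.41 and 15.43 at 9 h, a difference of 0.25 ± 0.12 (adjusted p = 0.534). Of 8 small nucleolar RNA hosts measured, 6 stood higher, with a median of 0.39. Snhg3 stood at 0.76 ± 0.29 (adjusted p = 0.421) and Gas5, which is bright on these arrays, at 0.35 ± 0.31, with 1.57 in its second feature.

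No gene of the Hedgehog pathway passed the threshold over all genes, and 10 of its 14 measured members stood lower at 9 h, with a median of -0.42 against -0.03 over all genes. In 6 of them p was under 0.05 unadjusted and the groups did not overlap. Over all genes 5.27% were lower at such a p and 9.66% lower without overlap. The study named Gli1, Foxl1, Foxf1 and Shh as falling in these samples, so the Hedgehog counts are no independent evidence. Since these are whole lungs, fewer cells of a type and less RNA per cell cannot be told apart in these values. Gli1, the target gene and effector of the pathway, came closest to the threshold. It read 10.16, 10.08 and 10.07 at 6 h and 9.44, 9.30 and 9.08 at 9 h, while controls were at 10.33 to 10.36. The 6 h lungs thus lay just under the controls and the 9 h lungs well under both. The difference was -0.83 ± 0.13 (adjusted p = 0.0558). Gli1 passed in 4 of 17 alternatives, among them a trended variance prior and a restriction to genes above the 50th percentile of level. Wnt6, Dusp9, Hmga2, Pdpn and Sp5, described below, passed in both of these as well.

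The ligand gene Shh stood at -0.46 ± 0.17 (adjusted p = 0.415), with 6.43, 6.65 and 6.57 at 6 h and 5.87, 6.2 and 6.21 at 9 h, and its second feature gave -0.19. Foxl1, a mesenchymal forkhead target of SHH, read 7.46, 7.38 and 7.30 at 6 h and 6.39, 6.31 and 6.51 at 9 h (-0.98 ± 0.23, adjusted p = 0.183). Foxf1 stood at -0.87 ± 0.33 and Foxf2 at -0.44 ± 0.16. Gas1, a co-receptor, stood at -0.50 ± 0.21, but its next feature gave 0.58. The receptor Ptch1 stood at -0.40 ± 0.36 and the ligand decoy Hhip at 0.18 ± 0.22. Of the other 6 members, the signal transducer Smo and the factors Gli2 and Gli3 among them, none had a p under 0.05.

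Fgf10 itself stood higher, at 7.60, 7.62 and 7.77 at 6 h and 7.99, 8.52 and 8.34 at 9 h (0.62 ± 0.24, adjusted p = 0.421). The groups did not overlap, and the second feature of Fgf10 gave 1.05. Of the 11 ligands measured, 7 stood higher, with a median of 0.28, and Fgf9, made by mesothelium and epithelium, stood at -0.23 ± 0.16. Of the receptors, Fgfr3 stood at 0.48 ± 0.16 (adjusted p = 0.345), with 0.23 in its second feature, and Fgfr2 at -0.29 ± 0.15. Whether the Fgfr2 feature lies in the part carried by the transgene is unknown.

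**Figure D3:**
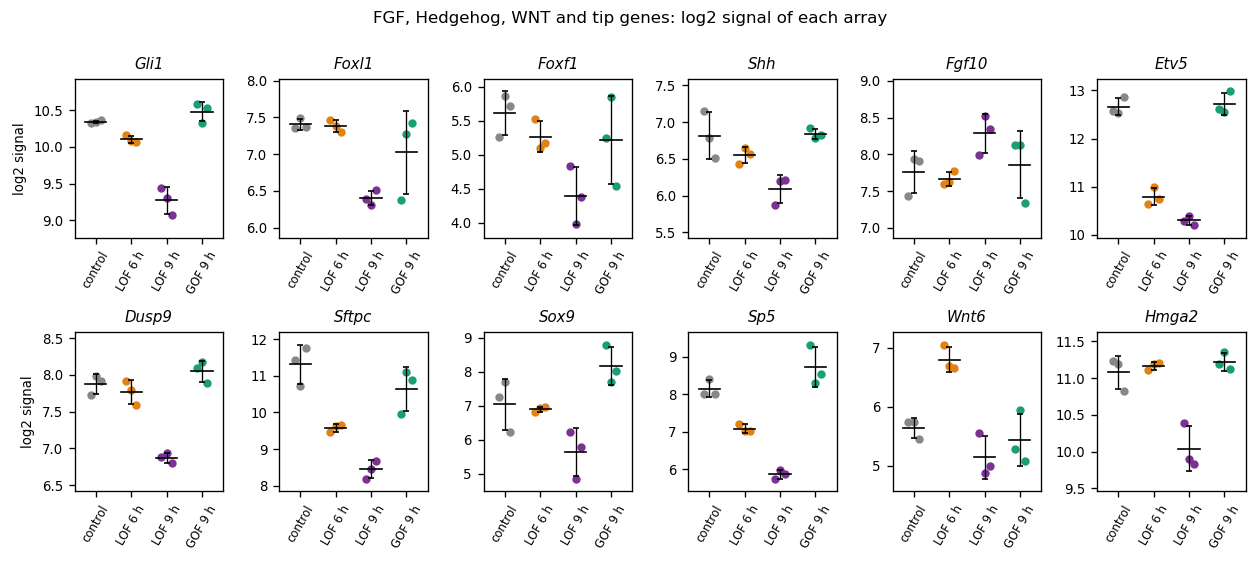
Log2 signal (vertical axis) of 12 genes of the FGF, Hedgehog and WNT pathways and of the lung tip, for the 3 arrays of each group with mean and SD; each panel has its own axis range. Gli1, Foxl1, Dusp9 and Hmga2 are near the control level at 6 h and lower at 9 h, Etv5, Sp5 and Sftpc are already below control at 6 h, and Wnt6 is highest at 6 h.

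None of the 18 targets and feedback genes of FGF and ERK signalling passed, 13 stood lower at 9 h, and the median was -0.17. At an unadjusted p under 0.05, 5 were lower and 1 higher. The groups did not overlap in 7 that were lower and 2 that were higher. The study named Etv4, Etv5 and Dusp9 from these samples, so these counts are no independent evidence. Etv5, the ETS factor most closely tied to FGFR2b in the lung tip, read 10.65, 10.99 and 10.74 at 6 h and 10.29, 10.40 and 10.21 at 9 h, with a control mean of 12.66. The step from 6 h to 9 h was -0.49 ± 0.16 (adjusted p = 0.337). Etv4 stood at -0.66 ± 0.36 and Etv1 at 0.08 ± 0.20, whose second feature gave -1.34. A larger step was seen in Dusp9, a phosphatase that inactivates ERK, with 7.91, 7.79 and 7.59 at 6 h and 6.88, 6.93 and 6.80 at 9 h (-0.90 ± 0.14, adjusted p = 0.0558). Its 6 h arrays lay around the control level of 7.73 to 7.99. Spred2, a membrane inhibitor of RAF activation, stood at -0.49 ± 0.18 and Dusp6, the best known ERK phosphatase among FGF targets, at -0.15 ± 0.19. Dusp5 stood at 0.83 ± 0.20 but its signal was at most 3.00 in these 6 arrays.

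Of 16 distal tip genes 10 stood lower at 9 h and 6 higher, with a median of -0.23, and none passed. The share that stood higher was 37.5%, beside 46.1% of all genes. At an unadjusted p under 0.05, 6 were lower (37.5%, beside 5.27% of all genes) and 0 higher. The groups did not overlap in 8 that were lower, beside 9.66% of all genes, and in 2 that were higher. The study named Sox9 and Id2 from these samples, so these counts are no independent evidence. Sftpc, the surfactant protein gene that marks lung epithelium earliest, read 9.46, 9.63 and 9.66 at 6 h and 8.20, 8.46 and 8.69 at 9 h, with a control mean of 11.31. Its difference was -1.14 ± 0.32 (adjusted p = 0.265). Sftpb stood at -2.06 ± 0.84, with 4.26, 4.84 and 4.72 at 6 h and 1.99, 2.41 and 3.25 at 9 h, and -0.945 in its second feature. Sox9, the tip progenitor factor, read 6.80, 6.93 and 6.95 at 6 h and 6.24, 4.86 and 5.79 at 9 h (-1.27 ± 0.44, adjusted p = 0.362), and its 9 h arrays were scattered. These values come from the brightest of its 10 features. Id2, also a tip gene, stood at 0.29 ± 0.30. Of 13 surfactant and alveolar type 2 genes 11 stood lower, with a median of -0.25, and of 11 alveolar type 1 genes 8, with a median of -0.30. At an unadjusted p under 0.05, 4 of the 13 were lower and 1 higher, and 2 of the 11 lower and 1 higher.

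Podoplanin (Pdpn), a membrane glycoprotein of alveolar type 1 cells and mesothelium, was close to the threshold, with 9.16, 9.32 and 9.03 at 6 h and 8.47, 8.44 and 8.28 at 9 h (-0.77 ± 0.13, adjusted p = 0.0742). Lin7a, a polarity scaffold gene, stood at -0.82 ± 0.16 (adjusted p = 0.114) and Tspan8, a tetraspanin, at -0.84 ± 0.22. Both were below the control level at 6 h already. Elf5, an epithelial ETS factor, and Lmo1, a LIM domain factor, stood higher, at 0.76 ± 0.21 and 0.99 ± 0.27 (adjusted p = 0.238 and 0.237). Of 48 measured genes taken from the study's text, 36 stood lower, with a median of -0.38, and none passed. At an unadjusted p under 0.05, 20 were lower and 3 higher. That list was chosen by the study on these samples, so its direction and counts are no independent evidence.

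Hmga2, a chromatin protein of embryonic progenitors, was bright and stood lower at 9 h. It read 11.11, 11.19 and 11.21 at 6 h and 10.39, 9.90 and 9.83 at 9 h (-1.13 ± 0.17, adjusted p = 0.0559), with controls at 10.82 to 11.23. Its second feature gave -0.89, again without overlap. Foxa3, an endodermal forkhead factor, stood at 5.46, 5.99 and 5.08 at 6 h and 3.73, 4.29 and 4.63 at 9 h, above its control mean of 3.25 at both times (-1.30 ± 0.30, adjusted p = 0.181). Dmrt2, a DM domain factor best known from somites, read 4.2, 4.72 and 4.45 at 6 h and 2.55, 2.56 and 2.25 at 9 h, the latter below the array median (-2.01 ± 0.31, adjusted p = 0.0558). The dim genes Gm9839 (-1.74 ± 0.26, with -0.33 in its other feature) and Cphx1, a homeobox gene of the early embryo (-1.06 ± 0.16), completed the 10 lower genes of smallest p, at an adjusted p of 0.0553 each.

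Among WNT ligands 8 of 10 stood lower, with a median of -0.28. Wnt6 read 7.05, 6.70 and 6.66 at 6 h and 5.55, 4.88 and 4.99 at 9 h, against 5.45 to 5.74 in the controls, so it was highest at 6 h (-1.66 ± 0.25, adjusted p = 0.0553). Wnt7b, the epithelial ligand of the lung, stood at -0.73 ± 0.24. Sp5, a direct target gene of beta-catenin, read 7.22, 7.02 and 7.02 at 6 h and 5.76, 5.99 and 5.87 at 9 h (-1.21 ± 0.24, adjusted p = 0.115), with a control mean of 8.15. The WNT antagonist gene Apcdd1 stood at -0.71 ± 0.16, and the nuclear partner of beta-catenin Lef1 at -0.23 ± 0.13. The median of 17 canonical WNT genes was -0.20 and 13 of them stood lower.

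BMP and TGF-beta genes had a median of 0.04 over 17 measured. Bmp7 stood at -0.65 ± 0.16 (adjusted p = 0.200), Bmp4, the tip ligand of the epithelium, at 0.27 ± 0.25 and the BMP target Id3 at 0.51 ± 0.15. In the Notch list, with a median of -0.07 over 17 genes, the receptor gene Notch1 was the only one with p under 0.05, with 3.84, 3.27 and 2.93 at 6 h and 5.42, 5.12 and 5.90 at 9 h (2.13 ± 0.48, adjusted p = 0.164). Its second feature gave 0.40. The control mean was 5.42, so here too the 6 h lungs were low. Retinoic acid genes had a median of -0.15 over 14 and none with p under 0.05.

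Digestive enzyme genes split. Besides Pnliprp1, the stomach calpain gene Capn9 read 4.13, 3.05 and 3.06 at 6 h and 5.93, 6.39 and 5.65 at 9 h (2.58 ± 0.39, adjusted p = 0.0558), while its second feature gave -0.33. Cym, the milk-clotting protease chymosin, was the brightest of them, with 10.43, 9.71 and 9.10 at 6 h and 11.58, 12.12 and 12.10 at 9 h against a control mean of 7.52 (2.19 ± 0.59, adjusted p = 0.237). Cpb1, a pancreatic carboxypeptidase, stood at 0.74 ± 0.25. Of the other 14 of the 18 measured enzyme genes, Capn8 alone had a p under 0.05 (-0.78 ± 0.29), and the median of the 18 was 0.00. Cblif, gastric intrinsic factor, stood at 1.10 ± 0.41 and the uroplakin gene Upk3a at 0.77 ± 0.20, with 4.42, 4.46 and 4.29 at 6 h and 5.38, 5.06 and 5.03 at 9 h.

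Of 26 ribosome biogenesis genes 24 stood lower at 9 h, with a median of -0.27 and with p under 0.05 in 6. Dhx33, a helicase needed for transcription of ribosomal RNA, stood at -0.40 ± 0.11 (adjusted p = 0.278), with 8.65, 8.58 and 8.73 at 6 h and 8.25, 8.35 and 8.17 at 9 h. Nop14 and Rrs1, both assembly factors, stood at -0.45 ± 0.16 and -0.35 ± 0.13. The other 2 of the 26 stood at or below 0.05. The ribosomal protein genes themselves were flat, with a median of 0.02 and a range from -0.13 to 0.14 over 19. The 9 h list mean of ribosome biogenesis genes was 8.96 to 9.05 and the 6 h one 9.20 to 9.36, below the controls at 9.46 to 9.49 at both times.

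Of 16 genes of the ATF4 and unfolded protein response 11 stood lower, 5 of them at an unadjusted p under 0.05, with a median of -0.17. Heat shock genes stood lower in 7 of 10, 3 of them at such a p, with a median of -0.12. Trib3, a pseudokinase induced by ATF4, read 6.83, 6.91 and 6.64 at 6 h and 5.82, 5.52 and 5.23 at 9 h (-1.27 ± 0.24, adjusted p = 0.113). The serine synthesis gene Phgdh stood at -0.56 ± 0.13 and Asns, asparagine synthetase, at -0.74 ± 0.29, whereas Atf4 stood at 0.58 ± 0.13, with 12.22, 12.18 and 12.17 at 6 h and 12.66, 12.84 and 12.80 at 9 h. Hexokinase 2 (Hk2) stood at -0.93 ± 0.23 (adjusted p = 0.198) and the median of 18 glycolysis and hypoxia genes at -0.04. Of 12 cholesterol synthesis genes 10 stood lower, with a median of -0.27. The 20 cell cycle genes had a median of -0.10, and the 16 circadian clock genes one of 0.02. Frem1, an extracellular matrix gene of the basement membrane, stood at 1.07 ± 0.21 (adjusted p = 0.114), and the median of 19 basement membrane genes was 0.13.

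**Figure D4:**
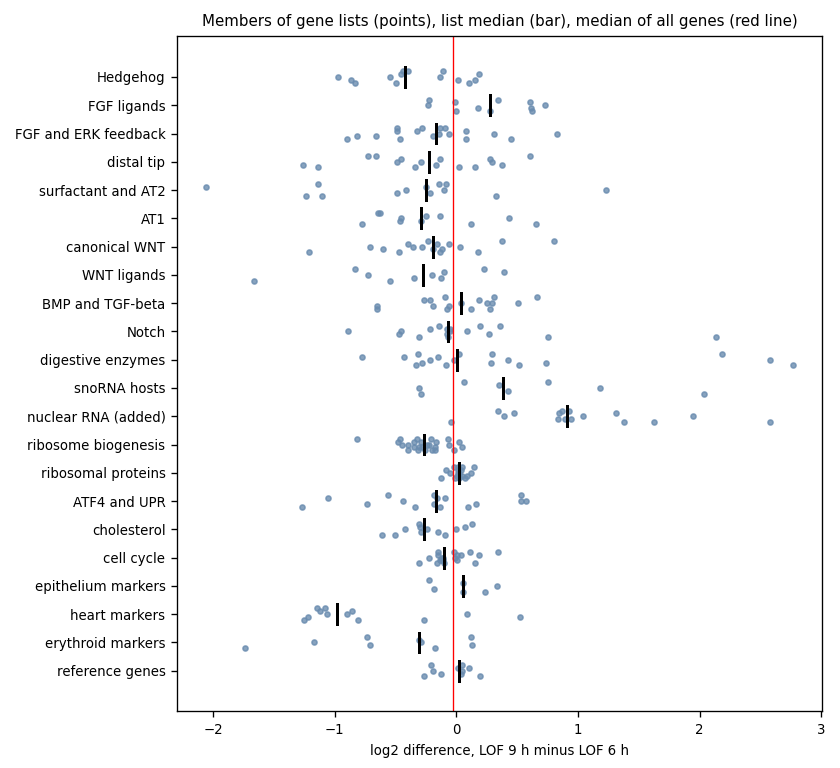
Log2 difference between LOF 9 h and LOF 6 h (horizontal axis) of the measured members of 22 gene lists, with the list median as a bar and the median of all genes (-0.03) as a red line; the nuclear RNA list was put together after the values had been seen. Its median is 0.91, those of the Hedgehog and heart lists are -0.42 and -0.98, and ribosomal protein and reference genes lie near 0.

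Markers of other tissues and cell types differed as well. Of 12 heart muscle genes 10 stood lower at 9 h, with a median of -0.98. In 5 the groups did not overlap, beside 9.66% of all genes lower without overlap. The list mean was 7.64, 6.99 and 6.93 in the 6 h arrays and 6.76, 6.54 and 5.99 in the 9 h arrays, with controls from 5.76 to 6.87. Myl4, the atrial light chain, read 12.65, 11.85 and 11.71 at 6 h and 11.38, 10.85 and 10.21 at 9 h (-1.25 ± 0.39, adjusted p = 0.305). The defining markers Myh6 and Myl7 stood at means of 11.61 and 9.22 at 6 h and 10.40 and 8.08 at 9 h, and Nppb had means below the array median.

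The list mean of 9 erythroid genes was 10.89 to 11.23 at 6 h and 10.51 to 10.67 at 9 h, with controls from 10.11 to 11.01. The embryonic globin gene Hbb-bh1 stood at -1.74 ± 0.38 (adjusted p = 0.149), and its controls ranged from 10.28 to 12.06. Skeletal muscle genes had a list mean of 3.67 to 3.88 at 6 h and 2.95 to 3.23 at 9 h, and 9 of 10 stood lower. Their controls ranged from 3.10 to 3.82, and these list means lie not far above the array median. Neural genes had 5.36 to 6.13 at 6 h and 4.93 to 5.22 at 9 h, with controls from 4.97 to 5.24. Of these, 8 of 8 stood lower at 9 h, among them the neural crest factor Sox10 at -1.56 ± 0.46. Oesophagus and stomach markers stood lower in 8 of 10, with a median of -0.37 and 3 at an unadjusted p under 0.05, beside the higher Pnliprp1 and Cym. Their list mean was 3.26 to 3.86 at 6 h, 3.07 to 3.14 at 9 h and 3.19 to 3.45 in controls, near the array median. Macrophage markers stood lower in 10 of 12, with a median of -0.18 and 2 at an unadjusted p under 0.05. Of these 2, Cd68 read at most 2.94 in the 6 arrays, under the array median, and Aif1 stood at -0.37 ± 0.16. C1qb and Cx3cr1, both bright enough to read, stood at -0.38 ± 0.23 and -0.25 ± 0.24. The fall of Itgax above was likewise at a dim signal. Endothelial, smooth muscle and mesothelial lists had medians of 0.17, 0.03 and -0.17. These markers moved with the lower genes above, such as Gli1, Wnt6 and Hmga2, and their part in those values was not tested beyond the covariate fits. The 10 reference genes had a median of 0.03 and a list mean of 12.29 to 12.42 over the 6 arrays.

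**Figure D5:**
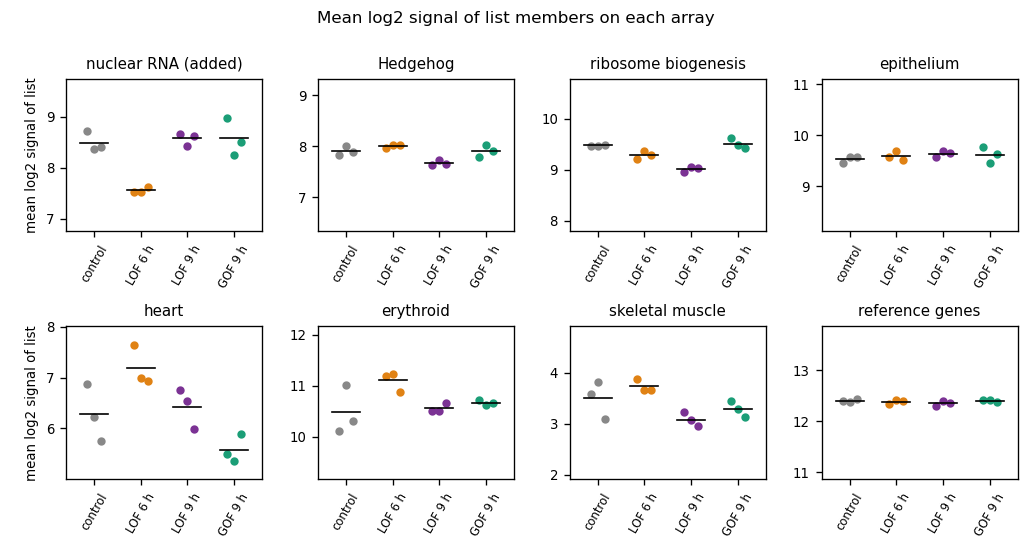
Mean log2 signal of list members (vertical axis, each panel spanning 3 units) on each of the 12 arrays by group, with the group mean as a bar. The nuclear RNA list, put together after the values had been seen, is lowest at 6 h, the heart list is higher at 6 h (6.93 to 7.64) than at 9 h (5.99 to 6.76), and epithelial and reference genes overlap between the times.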

How the data were processed

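Total RNA of single lungs was amplified, labelled with Cy3 and hybridised to Agilent arrays. The authors corrected the background with normexp on negative controls, took logs and quantile normalized with limma, and deposited log2 signal. The base 2 was inferred from the range. Of 62976 features, 31465 had 1 gene symbol in the platform annotation, updated through RefSeq, and the brightest over 12 arrays stood for each of 20738 genes (6171 with more than 1). The second feature of a gene is its next brightest, and some genes had more, such as Sox9, Shh and Fgf10 with 10 each. 31511 features without a symbol were tested apart. There were 2 missing values among the chosen features, and they were left missing in the fit.

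limma 3.58.1 (R 4.3.3) fitted the 4 groups over all 12 arrays with a constant variance prior, and p-values were adjusted by Benjamini-Hochberg over all genes. An exact permutation test of 3 against 3 arrays cannot go below 0.1. The median standard error of a difference was 0.265. The fit was tested on simulated data.

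The members and gene lists were chosen with earlier results of these data known. Named genes were all those called, filled to 10 in a direction by smallest unadjusted p, up to 4 members of each list by smallest p, and genes named in the study's text. Others named here (Lockd, Firre, the members of the nuclear RNA list, and list members given to account for a count) were chosen after their values were seen. Alternatives were other normalizations, features, filters on dim genes, variance priors, weights, samples and covariates. Slide and scan batch are not given in the sources used here.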

Additional observations from a re-analysis of the deposited data

How the results depend on the processing

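The number of genes called, 13 (10 higher and 3 lower), depended on how the variance was shared between genes and on which arrays were used. It was 27 (16 and 11) with genes above the 25th percentile of mean level, 116 (77 and 39) above the 50th percentile, 161 (114 and 47) with a trended robust prior, 36 (21 and 15) with array weights and 26 (18 and 8) without the GOF arrays. The trended prior and the filter at the 50th percentile shared 77 genes, 58 higher and 19 lower, with Gli1, Wnt6, Dusp9, Hmga2, Pdpn and Sp5 among the lower ones. It was 3 (3 and 0) with the heart level as a covariate, and 1 (1 and 0) with a Y-linked covariate or when limma tested against a 1.5-fold change. With limma on the 6 arrays compared alone, 0 were called in either direction, with 2103 genes at an unadjusted p under 0.05. On arrays with a low Eif2s3y signal, an alternative chosen after seeing the data, limma called 0, with 1765 at an unadjusted p under 0.05. That fit held 1 LOF 6 h array, assumed to vary like the other groups, and says nothing about the stability of the calls. Leaving out 1 array gave 1 to 49 calls, 1 to 32 higher and 0 to 17 lower, with 49 without GOF 9 h replicate 1, 8 without any 1 control and 1 without any 1 LOF 9 h array. In their deviations from the group mean, same-numbered 9 h and 6 h arrays correlated at 0.084, 0.031 and 0.035. Arrays of different numbers correlated at -0.057 to 0.026. Values this small cannot decide whether equal numbers share a litter or day. With the replicate number as a block, 5 genes (5 and 0) were called on 12 arrays and 0 on the 6 arrays (2172 at an unadjusted p under 0.05).

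Differences changed sign in Capn9 (-0.33), Firre (-0.18) and Gas1 (0.58) with the second feature, in Etv1 with the second feature (-1.34), the mean of features (-0.63) and without LOF 6 h replicate 1 (-0.10), in Hhip with the Y-linked covariate (-0.055) and in Ptch1 on arrays with a low Eif2s3y signal (0.21, against 1 LOF 6 h array). Tug1 turned to 0.012 with median centring and with the Y-linked covariate, to 0.17 with the mean of features, 0.12 with the second feature, 0.18 on arrays with a low Eif2s3y signal, and lay between -0.16 and 0.11 with 1 array left out, above 0 without LOF 9 h replicate 1 or LOF 6 h replicate 3. The heart markers Myh6 and Myl7 differed by -1.22 and -1.14 in the main fit. Over the alternatives and the fits with 1 array left out they reached 0.30 and 0.04 at the highest. The causes were not tested. With 3 lungs a group, signals near the array median limit the precision.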

Other observations

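Of the 31511 features without a gene symbol in the platform annotation, 2 were called higher at 9 h and 0 lower by limma with Benjamini-Hochberg adjustment over these features, and 2359 had an unadjusted p under 0.05. They are unnamed here and were not followed further.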
